A study of Homo sapiens with 12 samples.

Results

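Transcripts of 10 genes that respond to the hypoxia-inducible factors (HIFs), or that encode or degrade them, were followed in HepG2 cells: HIF1A, EPAS1, ADM, NDRG1, VEGFA, EGLN1, EGLN3, BNIP3, BNIP3L and CA9. They were chosen by symbol, and all 10 are among the 13511 genes of the deposited count table. No filter on low counts removed any of them. HIFs are transcription factors made of an oxygen-labile alpha subunit (HIF1A or EPAS1, also called HIF-2 alpha) and the stable partner ARNT. While oxygen is present, the prolyl hydroxylases encoded by EGLN genes mark the alpha subunits for binding by VHL and for degradation. In low oxygen the subunits persist, bind short DNA sites in target genes and recruit the acetyltransferases CBP and p300, while some of their targets, EGLN3 and EGLN1 among them, feed back on the alpha subunits. In liver cells these factors control erythropoietin, iron, glucose and lipid genes, and BNIP3 and BNIP3L link them to the removal of mitochondria.

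HepG2 is a human hepatoma line, and its cells were treated with A-485, which inhibits the acetyltransferase activity of CBP and p300, and with doxycycline (Dox), an antibiotic that also inhibits protein synthesis in mitochondria. The groups, each with 3 libraries, are named A-485 and Dox (5 µM A-485 for 1 h, then A-485 together with 30 µg/ml doxycycline for 24 h), A-485 (the inhibitor over the same times, no doxycycline), Dox (the solvent DMSO for 1 h, then DMSO together with doxycycline for 24 h) and DMSO (the solvent alone). All cells are labelled wild type, grew in the same high-glucose medium with serum and received no other antibiotic; the labels name no low-oxygen step and no agent that stabilises HIFs. Nothing in the labels ties the 3 libraries of a group to separate dishes of cells; the p-values therefore cover only library-to-library spread, possibly technical. In RNA from a whole culture, a lower level in every cell and a loss in some of the cells cannot be told apart.

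Gene counts ran from 46600324 to 51773300 per library. The 9 hepatocyte-like markers were all in the table, with summed levels of 18453 to 18758 CPM (counts scaled to a common library total) in A-485 and Dox, 19873 to 19960 CPM in A-485, 42153 to 64697 CPM in Dox and 54580 to 55383 CPM in DMSO; their part in the results below was not tested. Of the markers of other cell types, 2 of 5 endothelial, 2 of 3 leukocyte and 1 of 5 stromal genes were in the table, with sums of at most 12.5, 8.20 and 5.90 CPM, and CDH5, VWF, KDR, PTPRC, COL1A1, COL1A2, LUM and DCN were not. Dox replicate 1 stood apart: its counts differed from those of the other 2 Dox libraries with a chi-square per degree of freedom of 868 and 885, against 1.31 to 3.78 for all other replicate pairs. It raised the biological coefficient of variation of the fit to 20.7%, against 1.52% without it. Values are therefore with all 12 libraries unless stated otherwise. Those of the 10 genes are given again without Dox replicate 1, where the Dox group has 2 libraries, if the call differed or the value moved by over 1.5 times, and those of other genes if the value moved by over 1.5 times.

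Promoters of 7 of the 10 genes were matched in RefSeq (build GRCh38.p14). For 6 of these 7 genes at least 1 promoter holds the core of the HIF binding site in the 250 bases before the annotated start. This core is ACGTG or GCGTG on either strand. The count is per gene, while the shares below are per promoter: HIF1A has 2 promoters, and the second holds no match. Of all 35116 promoters of the same length 43.2% hold at least 1 of these motifs, 18.5% hold ACGTG and 32.2% hold GCGTG, so a match is common. Of these 7, 4 are shown: ADM had the largest interaction of the 10 genes with and without Dox replicate 1, CA9 the largest deviation of Dox replicate 1, EGLN1 encodes a hydroxylase that feeds back on HIF, and BNIP3 is a mitophagy gene. With all 12 libraries no comparison was called for CA9. Capitals mark the motifs, which read CACGT or CACGC where they lie on the other strand. A match describes these letters only and is not a binding site. ADM (chr11:10304823-10305072, plus strand) has 1 GCGTG 101 to 97 bases before the start, EGLN1 (chr1:231422288-231422537, minus strand) has 1 ACGTG at 13 to 9 bases, and CA9 (chr9:35673678-35673927, plus strand) has 1 ACGTG on the opposite strand at 18 to 14 bases. BNIP3 (chr10:131981924-131982173, minus strand) has 6 matches between 143 and 100 bases before the start, of which the forward and reverse ACGTG overlap. Of the others, the first HIF1A promoter and that of EPAS1 have 1 GCGTG each. The second HIF1A promoter and that of EGLN3 have no match in this window.
ADM: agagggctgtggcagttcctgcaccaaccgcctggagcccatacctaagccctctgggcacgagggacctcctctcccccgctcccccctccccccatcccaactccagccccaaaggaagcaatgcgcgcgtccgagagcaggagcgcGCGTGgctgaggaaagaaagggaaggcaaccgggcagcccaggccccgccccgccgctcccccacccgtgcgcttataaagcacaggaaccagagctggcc
EGLN1: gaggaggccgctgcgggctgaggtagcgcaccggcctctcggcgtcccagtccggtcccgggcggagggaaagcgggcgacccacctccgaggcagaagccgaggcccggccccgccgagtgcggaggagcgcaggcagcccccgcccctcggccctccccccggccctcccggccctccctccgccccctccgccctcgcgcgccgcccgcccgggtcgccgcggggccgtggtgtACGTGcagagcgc
BNIP3: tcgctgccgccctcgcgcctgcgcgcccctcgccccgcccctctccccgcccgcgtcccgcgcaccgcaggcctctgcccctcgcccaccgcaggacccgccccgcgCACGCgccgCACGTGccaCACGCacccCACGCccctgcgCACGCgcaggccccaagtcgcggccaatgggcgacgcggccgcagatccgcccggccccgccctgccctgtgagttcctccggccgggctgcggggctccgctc
CA9: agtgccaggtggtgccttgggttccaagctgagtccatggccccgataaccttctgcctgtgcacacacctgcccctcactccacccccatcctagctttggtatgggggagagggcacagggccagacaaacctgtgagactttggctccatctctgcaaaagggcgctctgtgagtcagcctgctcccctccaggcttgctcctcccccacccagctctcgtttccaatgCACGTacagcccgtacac

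With A-485 against DMSO 6 of the 10 genes changed, in both directions, and with doxycycline against DMSO 2 changed, both lower. A gene was called changed at an edgeR adjusted p under 0.05, adjusted over all 13511 genes. With A-485 against DMSO 2 of the 10 rose and 4 fell, where 53.3% of all genes were called (26.3% higher, 27.1% lower). With doxycycline against DMSO none rose and 2 fell, where 16.1% were called (9.01% higher, 7.08% lower). With both compounds against Dox 3 rose and 2 fell, where 60% were called (27.1% higher, 32.9% lower). With both against A-485 3 rose and none fell, where 7.39% were called (3.74% higher, 3.66% lower). The interaction, that is the log2 change by doxycycline in inhibitor-treated cells less its change in cells without the inhibitor, was called for 3 genes, all positive. Of all genes 2.58% had an interaction called (1.25% positive, 1.32% negative). For the comparisons that test A-485, the shares of the 10 genes, 60% and 50%, are close to these backgrounds. Comparisons that have a group in common share its libraries. The libraries of A-485 and DMSO did not overlap for any of the 10 genes, where the same held for 89.9% of all genes. They did not overlap for 3 genes in Dox against DMSO (all genes 40.2%), 7 in A-485 and Dox against Dox (all genes 67.7%) and 9 in A-485 and Dox against A-485 (all genes 67.1%). The median log2 fold change of the 10 genes was -0.51 for A-485 against DMSO (all genes 0.04), -0.14 for Dox against DMSO (all genes 0.03), 0.12 for A-485 and Dox against Dox (all genes -0.06), 0.21 for A-485 and Dox against A-485 (all genes -0.02), and 0.30 for the interaction (all genes -0.05).

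Most genes of the table passed the test in 4 of the 5 comparisons without Dox replicate 1. The shares of all genes called were then 66% for Dox against DMSO, 90.3% for A-485 against DMSO, 87.8% for A-485 and Dox against Dox, 66% for both compounds against A-485 alone and 48.4% for the interaction. Of the 10 genes 3 were called higher and 5 lower for Dox against DMSO, 3 and 6 for A-485 against DMSO, 6 and 4 for A-485 and Dox against Dox, and 8 and 1 for A-485 and Dox against A-485. The calls gained for A-485 and Dox against Dox include NDRG1, at 0.08 (0.17 with all libraries), and EGLN1, at 0.05 (0.315 with all libraries). Those gained for A-485 and Dox against A-485 include HIF1A, at 0.05, and EPAS1, at 0.15, at the same values as with all libraries. For the interaction 9 were called higher and 1 lower. With a change of more than 1.5-fold asked as well, the interaction was called for 4 of the 10, ADM, NDRG1, VEGFA and CA9, all positive, where 6.71% of all genes were called. Of the other interactions, HIF1A was called lower at -0.13, with the value of all 12 libraries, 0.20, in parentheses from here on. EPAS1 was called higher at 0.14 (0.45), EGLN1 at 0.085 (0.35), EGLN3 at 0.13 (0.15), BNIP3 at 0.22 (0.125) and BNIP3L at 0.22 (0.25). With all 12 libraries none of these was called.

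Library scaling moved the balance of directions in the comparisons that test A-485. Scaling by library totals alone, in place of TMM, gave a median log2 fold change of all genes of 0.39 in place of 0.04 for A-485 against DMSO, and of 0.36 in place of -0.06 for A-485 and Dox against Dox. Changes by A-485 are therefore relative to the bulk of the genes. Under that scaling the 6 genes called for A-485 against DMSO kept their direction, but NDRG1 and VEGFA no longer passed the test, at -0.22 and -0.39 (edgeR adjusted p = 0.29 and 0.11).

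**Figure D1:**
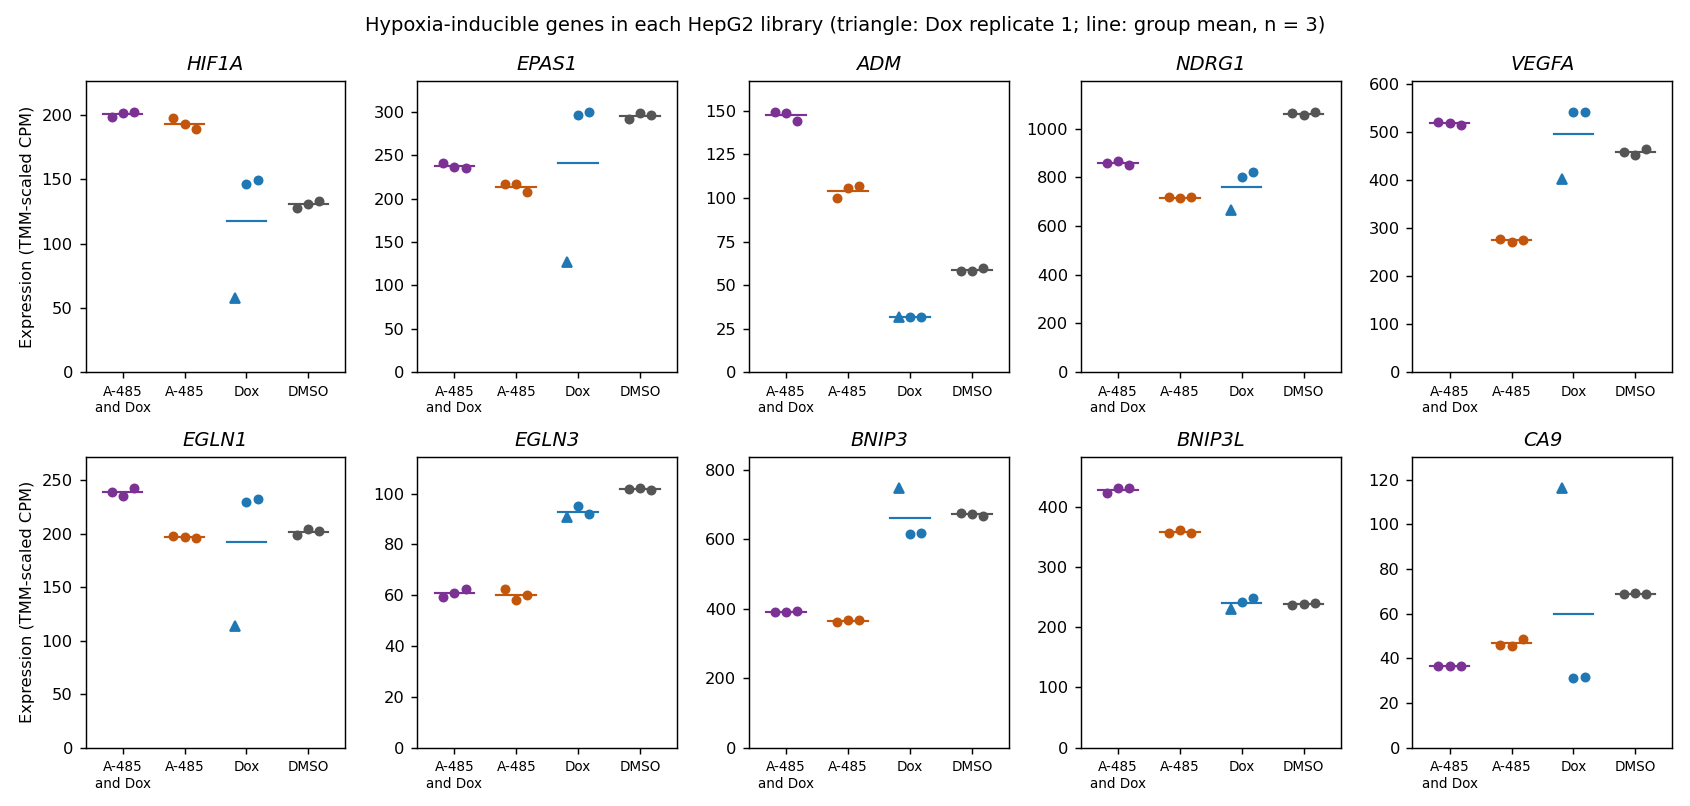
TMM-scaled CPM (linear axis from 0) of the 10 genes in each of the 12 libraries, by group, with the group mean as a line and Dox replicate 1 as a triangle. ADM has its lowest libraries in Dox (31.4 CPM) and its highest in A-485 and Dox (149 CPM), VEGFA is lowest in A-485, and Dox replicate 1 lies far from the other 2 Dox libraries for HIF1A, EPAS1, EGLN1 and CA9.

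Levels of different genes were compared per kb of exonic length. In DMSO the order of the median levels was BNIP3 at 127 CPM per kb, NDRG1 at 108, BNIP3L at 55.5, CA9 at 41.2, EPAS1 at 40.7, VEGFA at 31.7, EGLN1 at 27.9, HIF1A at 25.5, ADM at 21.4 and EGLN3 at 13.8, and no neighbours in that order had overlapping libraries. BNIP3L headed the order in both groups with the inhibitor, at 99.9 CPM per kb in A-485 and Dox and 82.8 in A-485, while BNIP3 headed it in Dox at 116. ADM took the fourth place in A-485 and Dox, at 54.7 CPM per kb, and in A-485, at 38.8, but the last place in Dox, at 11.5. In A-485 the libraries of ADM and HIF1A overlapped, as did those of EPAS1 and CA9, and in A-485 and Dox those of EGLN1 and EPAS1. In Dox the neighbours from EPAS1 down to CA9 (EPAS1, VEGFA, EGLN1, HIF1A, CA9) overlapped pairwise, which rests on Dox replicate 1. CA9 shares 38.5% of its exonic length with ARHGEF39, so its level per kb may be too low.

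Among the alpha subunits, HIF1A was higher and EPAS1 lower with the inhibitor than with DMSO in every library. HIF1A (ENSG00000100644, chr14:61695513-61748259, plus strand, GRCh38), which encodes HIF-1 alpha, had 198.2, 201.5 and 202.3 CPM in A-485 and Dox, 197.5, 193.2 and 189.5 CPM in A-485, 57.31, 146.6 and 149.7 CPM in Dox and 128.1, 131.2 and 133.1 CPM in DMSO. Both groups with A-485 lay above all other libraries, and Dox replicates 2 and 3 lay above DMSO while Dox replicate 1 lay below it. The log2 fold change of A-485 against DMSO was 0.56 ± 0.28 (SE, edgeR adjusted p = 0.12), which did not pass the test with all libraries. It was the same without Dox replicate 1, where it passed (0.56 ± 0.02, edgeR adjusted p = 8.7e-32). HIF1A rose with A-485 and Dox against Dox by 0.77 ± 0.28 (edgeR adjusted p = 0.039) and was called at 0.44 ± 0.02 without Dox replicate 1. The call was lost in a fit of these 2 groups alone (edgeR adjusted p = 0.16) and when any 1 of the 9 libraries of the other 3 groups was left out (adjusted p at most 0.083).

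EPAS1 (ENSG00000116016, chr2:46293667-46386703, plus strand), the alpha subunit that drives erythropoietin in liver, had 241.5, 236.5 and 234.9 CPM in A-485 and Dox, 216.4, 216.6 and 207.6 CPM in A-485, 126.9, 296.8 and 299.7 CPM in Dox and 292.3, 298.5 and 297 CPM in DMSO. Dox replicates 2 and 3 lay among or just above the DMSO libraries, and Dox replicate 1 was the lowest of the 12. A-485 against DMSO was at -0.47 ± 0.26 (edgeR adjusted p = 0.15), and passed the test at the same value without Dox replicate 1 (-0.47 ± 0.02, edgeR adjusted p = 5.8e-30). A-485 and Dox against Dox was at -0.02 ± 0.26 with all libraries and was called lower, at -0.33 ± 0.02, without Dox replicate 1. For both subunits Dox against DMSO was not called with all libraries (HIF1A -0.15 ± 0.28, EPAS1 -0.30 ± 0.26). HIF1A was called higher at 0.18 ± 0.02 without Dox replicate 1, and EPAS1 was at 0.01 ± 0.02 (edgeR adjusted p = 0.64). These are mRNA levels, and HIF alpha subunits are regulated mainly as proteins.

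The hydroxylase genes EGLN1 and EGLN3 did not share a pattern. EGLN1 (ENSG00000135766, chr1:231363751-231425044, minus strand) encodes PHD2, the main oxygen sensor of the pathway. It had 238.4, 235.5 and 242.6 CPM in A-485 and Dox, 197.3, 196.8 and 196 CPM in A-485, 113.9, 229.7 and 232.4 CPM in Dox and 199, 203.8 and 202.6 CPM in DMSO. The A-485 libraries lay just below DMSO, and the libraries with doxycycline lay above both except Dox replicate 1. No comparison passed the test for EGLN1 with all libraries: Dox against DMSO was at -0.07 ± 0.22, A-485 against DMSO at -0.04 ± 0.22 and A-485 and Dox against A-485 at 0.28 ± 0.22. Without Dox replicate 1 doxycycline was called higher both without A-485 (0.20 ± 0.02, edgeR adjusted p = 3e-12) and with it (0.28 ± 0.02, edgeR adjusted p = 5.1e-20), and A-485 against DMSO was not called (edgeR adjusted p = 0.052). The sign of A-485 against DMSO turned to 0.31 with library totals alone.

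EGLN3 (ENSG00000129521, chr14:33924231-34462774, minus strand), which encodes PHD3 and is itself strongly induced by HIFs, had 59.17, 60.69 and 62.45 CPM in A-485 and Dox, 62.5, 58.15 and 60.04 CPM in A-485, 90.68, 95.2 and 91.92 CPM in Dox and 101.8, 102.2 and 101.2 CPM in DMSO. The 6 libraries with the inhibitor overlapped each other and lay below the 6 without it, and all Dox libraries lay below all DMSO libraries. EGLN3 fell with A-485 against DMSO by 0.76 on the log2 scale (SE 0.06, edgeR adjusted p = 3e-06) and with A-485 and Dox against Dox by 0.61 (SE 0.06, edgeR adjusted p = 1.5e-05). With library totals alone the value against Dox was -0.20 and no longer called (edgeR adjusted p = 0.18). Dox against DMSO was at -0.14 ± 0.06 (edgeR adjusted p = 0.15), called lower at -0.12 ± 0.03 without Dox replicate 1, and A-485 and Dox against A-485 was at 0.01 ± 0.06.

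With all 12 libraries ADM was the only one of the 10 genes called in opposite directions for doxycycline without and with the inhibitor. NDRG1 (-0.39 and 0.26) and BNIP3 (-0.12 and 0.10) were so called too without Dox replicate 1. ADM (ENSG00000148926, chr11:10304680-10307397, plus strand) encodes adrenomedullin, a secreted peptide that widens vessels and a long-known HIF target. It had 149.3, 148.8 and 144.3 CPM in A-485 and Dox, 99.82, 105.5 and 106.9 CPM in A-485, 31.37, 31.38 and 31.35 CPM in Dox and 58.17, 58.08 and 59.79 CPM in DMSO. None of the 4 groups overlapped, and Dox replicate 1 did not differ from the other Dox libraries for this gene. Doxycycline lowered ADM without the inhibitor, by 0.90 on the log2 scale (SE 0.06, edgeR adjusted p = 1.1e-05), and raised it with the inhibitor, by 0.50 ± 0.06 (edgeR adjusted p = 0.00072). The interaction was 1.41 ± 0.08 (edgeR adjusted p = 8e-05), or 2.65-fold. A-485 raised ADM by 0.83 ± 0.06 without doxycycline (1.77-fold, edgeR adjusted p = 1.2e-06) and by 2.23 ± 0.06 with it (4.70-fold, edgeR adjusted p = 2.6e-09). These 5 calls held, with the same sign, in every alternative of scaling, filter, tool and left-out library that was run. The interaction stayed between 1.38 and 1.43 over the 12 fits that each left out 1 library.

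VEGFA and NDRG1 had the other interactions called with all libraries. VEGFA (ENSG00000112715, chr6:43770184-43786487, plus strand), the growth factor for blood vessels, had 521.6, 519.8 and 515.5 CPM in A-485 and Dox, 276.7, 271.6 and 275.8 CPM in A-485, 403.1, 541.4 and 540.9 CPM in Dox and 457.6, 453 and 464.7 CPM in DMSO. The A-485 libraries were the lowest, while those with both compounds lay above DMSO and just below Dox replicates 2 and 3. VEGFA fell with A-485 against DMSO by 0.74 on the log2 scale (SE 0.11, edgeR adjusted p = 0.00021) and rose with doxycycline in the presence of A-485 by 0.92 ± 0.11 (1.89-fold, edgeR adjusted p = 0.00079). Without A-485 the doxycycline effect was 0.11 ± 0.11 (edgeR adjusted p = 0.47), called higher at 0.24 ± 0.02 without Dox replicate 1. A-485 and Dox against Dox was at 0.07 ± 0.11, and was called lower at -0.06 ± 0.02 without Dox replicate 1. The interaction was 0.81 ± 0.15 (edgeR adjusted p = 0.023), and 0.68 ± 0.02 without Dox replicate 1.

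NDRG1 (ENSG00000104419, chr8:133237171-133302022, minus strand), a cytoplasmic stress-response protein whose mRNA rises in low oxygen, had 857.6, 867.6 and 849.3 CPM in A-485 and Dox, 717, 715.5 and 717.2 CPM in A-485, 663.4, 799.5 and 821.1 CPM in Dox and 1062, 1055 and 1067 CPM in DMSO. All treated libraries lay below DMSO, and those with both compounds lay above every library with only 1 of them. NDRG1 fell with A-485 against DMSO by 0.57 on the log2 scale (SE 0.09, edgeR adjusted p = 0.00035) and with Dox against DMSO by 0.48 (SE 0.09, edgeR adjusted p = 0.0057). For Dox against DMSO the value was -0.39 without Dox replicate 1, and it did not pass the test in a fit of these 2 groups alone (edgeR adjusted p = 0.21) or with library totals alone (edgeR adjusted p = 0.07). With A-485 present, doxycycline gave 0.26 ± 0.09 (edgeR adjusted p = 0.12), called higher at the same value without Dox replicate 1. The interaction was 0.74 ± 0.12 (edgeR adjusted p = 0.015), and 0.65 ± 0.02 without Dox replicate 1. The interaction calls of NDRG1 and VEGFA were both lost when any 1 of the 9 libraries outside the Dox group was left out, with edgeR adjusted p of up to 0.061 for NDRG1 and 0.081 for VEGFA; the values themselves stayed between 0.65 and 0.80 for NDRG1 and between 0.68 and 0.88 for VEGFA.

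**Figure D2:**
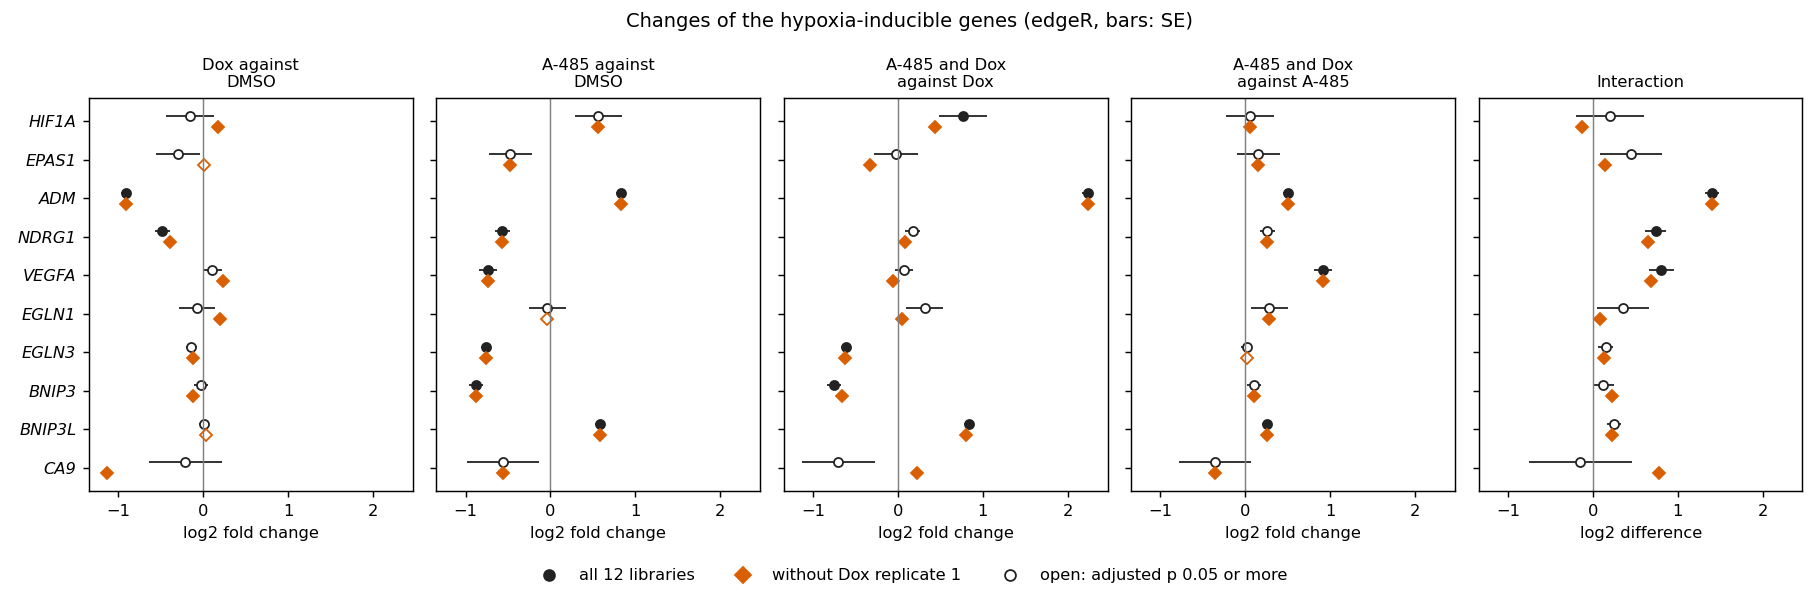
Log2 fold changes of the 10 genes in the 4 comparisons and log2 difference for the interaction (edgeR, bars are SE), with all 12 libraries as circles and without Dox replicate 1 as diamonds; open symbols did not pass the test. The circles and diamonds of ADM coincide in all 5 panels, and those of CA9 lie on opposite sides of 0 for A-485 and Dox against Dox and for the interaction.

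The mitophagy receptors BNIP3 and BNIP3L moved in opposite directions with the inhibitor. BNIP3 (ENSG00000176171, chr10:131966455-131982013, minus strand) and BNIP3L (ENSG00000104765, chr8:26382898-26505636, plus strand), also called NIX, encode related proteins of the outer mitochondrial membrane that bind the autophagy machinery. BNIP3 had 390.6, 390.9 and 395.3 CPM in A-485 and Dox, 360.9, 367.9 and 368.3 CPM in A-485, 748.6, 615.2 and 619 CPM in Dox and 675.2, 674.4 and 666.9 CPM in DMSO. BNIP3L had 423.3, 430.1 and 431 CPM in A-485 and Dox, 356.5, 361.8 and 356.1 CPM in A-485, 230.8, 241.8 and 248 CPM in Dox and 236.4, 238.9 and 240.6 CPM in DMSO. For both genes the 6 libraries with A-485 lay on one side of the 6 without it, below for BNIP3 and above for BNIP3L, and the Dox libraries overlapped DMSO.

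BNIP3 fell with A-485 against DMSO by 0.88 on the log2 scale (SE 0.09, edgeR adjusted p = 1.2e-05) and with A-485 and Dox against Dox by 0.75 (SE 0.09, edgeR adjusted p = 3.8e-05; -0.65 without Dox replicate 1). BNIP3L rose in the same comparisons by 0.59 ± 0.06 (edgeR adjusted p = 1.7e-05) and by 0.83 ± 0.06 (edgeR adjusted p = 1.4e-06). Both directions held under every scaling, also with library totals alone, where BNIP3 was at -0.53 and BNIP3L at 0.94 for A-485 against DMSO. Doxycycline alone gave -0.02 ± 0.09 for BNIP3 and 0.01 ± 0.06 for BNIP3L, neither called. BNIP3 was called lower at -0.12 ± 0.02 without Dox replicate 1, and BNIP3L was at 0.04 ± 0.02 (edgeR adjusted p = 0.094). With A-485 present, BNIP3L rose with doxycycline by 0.26 ± 0.06 (edgeR adjusted p = 0.028), a call lost when any 1 of the 9 libraries outside the Dox group was left out (adjusted p up to 0.12). BNIP3 was at 0.10 ± 0.09 there (edgeR adjusted p = 0.67), called higher at the same value without Dox replicate 1. BNIP3L shares 8.96% of its exonic length with other genes.

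CA9, carbonic anhydrase 9, is a membrane enzyme that acidifies the surroundings of hypoxic cells and is among the genes most dependent on HIF-1. CA9 (ENSG00000107159, chr9:35673856-35681159, plus strand) had 36.49, 36.52 and 36.67 CPM in A-485 and Dox, 46, 45.72 and 48.69 CPM in A-485, 116.3, 31.23 and 31.46 CPM in Dox and 68.86, 69.05 and 68.71 CPM in DMSO. Apart from Dox replicate 1, the highest of the 12 libraries, all treated libraries lay below DMSO, and the lowest were Dox replicates 2 and 3. With all libraries no comparison passed the test: A-485 against DMSO was at -0.56 ± 0.43 (edgeR adjusted p = 0.3) and Dox against DMSO at -0.21 ± 0.43 (edgeR adjusted p = 0.74). All 5 were called without Dox replicate 1: -0.56 ± 0.03 for A-485 against DMSO, -1.14 ± 0.03 for Dox against DMSO, 0.22 ± 0.04 for A-485 and Dox against Dox, 0.78 ± 0.05 for the interaction and -0.36 ± 0.03 for A-485 and Dox against A-485. With all libraries A-485 and Dox against Dox was at -0.705 ± 0.43 and the interaction at -0.147 ± 0.60. The call for doxycycline and the signs of these 2 values thus rest on which Dox libraries are used.

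Dox replicate 1 deviated from the other 2 Dox libraries to a different degree for each gene. Its log2 difference from their mean was -1.37 for HIF1A, -1.23 for EPAS1, -1.02 for EGLN1, -0.43 for VEGFA, -0.29 for NDRG1, -0.09 for BNIP3L, -0.05 for EGLN3, 0.00 for ADM, 0.28 for BNIP3 and 1.89 for CA9. Of all genes 96% lay below the value of CA9 and 9.7% below that of HIF1A. CA9 is the shortest of the 10 genes, with 1670 bases of exon, and a smooth curve through all genes gave 0.93 at that length, so that 0.96 of the deviation was left. At the 5151 bases of HIF1A the curve gave -0.12 and -1.26 was left. At the 2718 bases of ADM it gave 0.49 and -0.49 was left. An offset for this trend in Dox replicate 1 gave 4 calls among the 10 genes for Dox against DMSO, in place of 2.

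**Figure D3:**
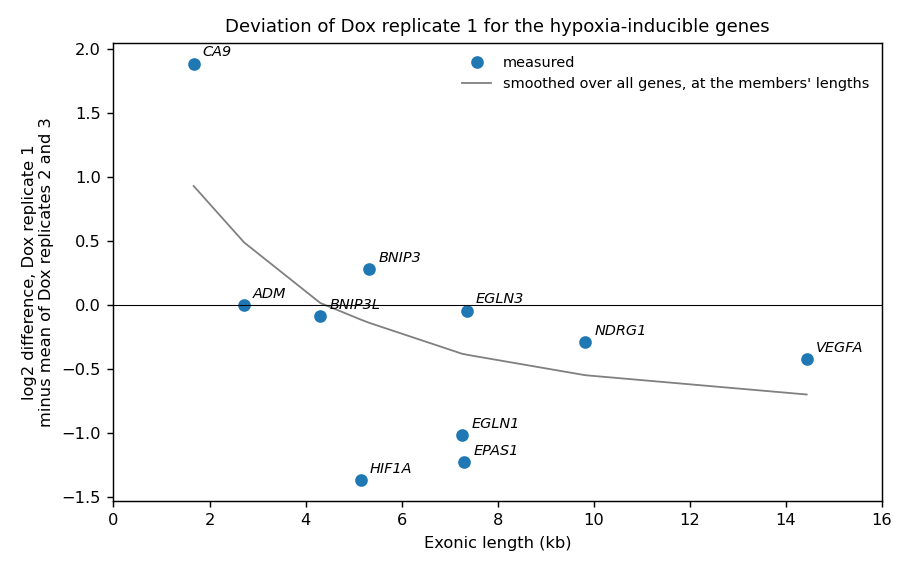
Log2 difference between Dox replicate 1 and the mean of Dox replicates 2 and 3 (vertical axis) against exonic length in kb (horizontal axis) for the 10 genes, with the curve smoothed over all genes. CA9, the shortest gene, lies at 1.89 and HIF1A at -1.37, both off the curve. ADM lies at 0.00, also off the curve, which gives 0.49 at its length.

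With all 12 libraries the interaction was called positive for 3 of the 10 genes and for 10 of 51 other, non-glycolytic HIF targets, and negative for none of them. It was called for none of 23 glycolytic HIF targets, but positive for 20 of those without Dox replicate 1. Of 51 other HIF target genes in the table, with the glycolytic ones set apart, 10 had a positive interaction and none a negative one, where 1.25% of all genes were called positive and 1.32% negative; the median was 0.47 (all genes -0.05). Without Dox replicate 1 the counts were 33 and 10 of 51, where 21.8% and 26.6% of all genes were called, with a median of 0.34. Among the smallest p-values were those of LOXL2, a lysyl oxidase that crosslinks matrix, at 1.45 ± 0.16, RASSF1, a tumour suppressor, at 0.77 ± 0.10, and ADORA2B, an adenosine receptor, at 0.66 ± 0.09. LOXL2 averaged 2.65 ± 0.15 CPM in A-485 and Dox, 2.85 ± 0.33 in A-485, 1.97 ± 0.19 in Dox and 5.78 ± 0.32 in DMSO (SD, n = 3 each). These genes were listed with earlier results of these data known.

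**Figure D4:**
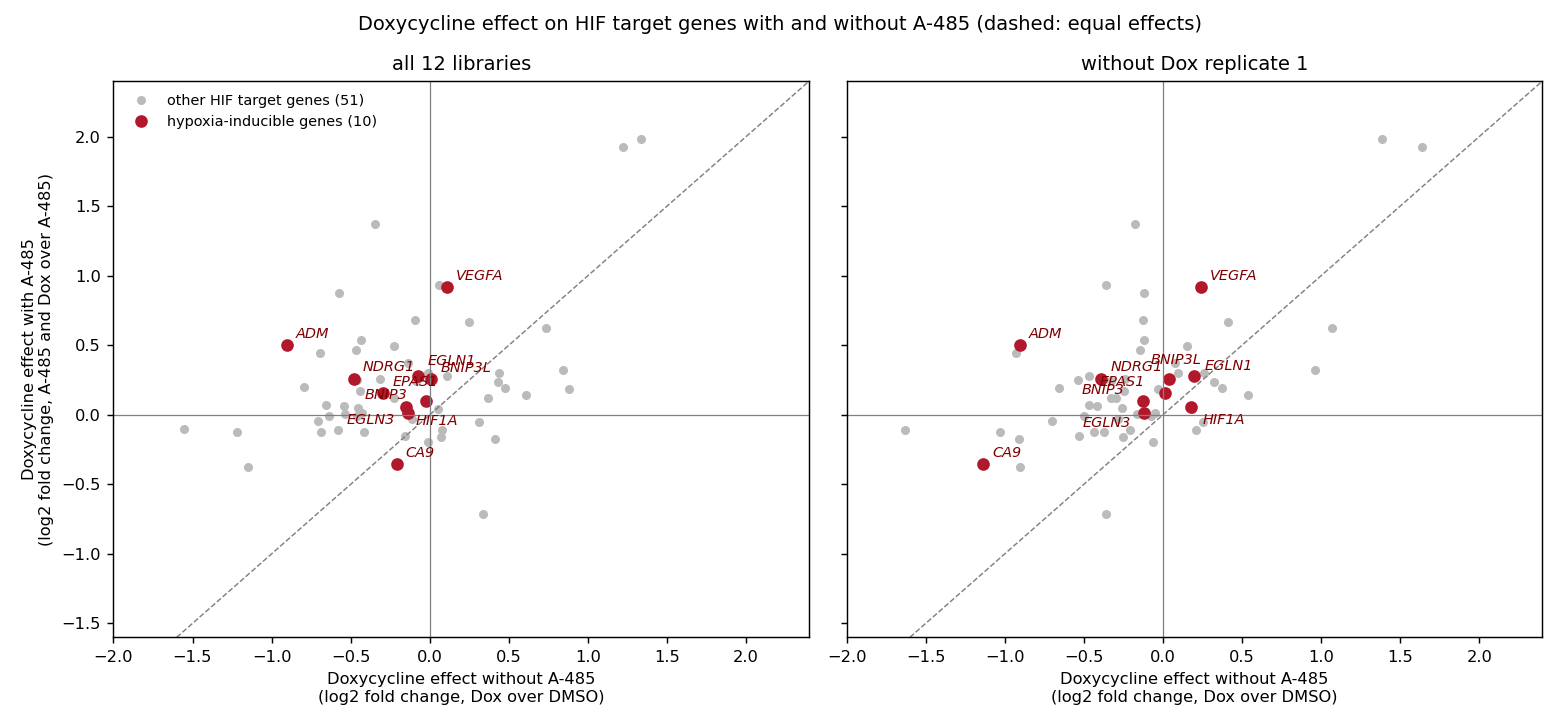
Doxycycline effect with A-485 (A-485 and Dox over A-485, vertical axis, log2 fold change) against the effect without it (Dox over DMSO, horizontal axis) for the 10 genes (red) and 51 other HIF target genes (grey), with all libraries on the left and without Dox replicate 1 on the right. Points above the dashed line have a positive interaction: ADM lies at -0.90 and 0.50 in both panels, and CA9 crosses the line between the panels.

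In the single comparisons the same 51 genes went both ways. With A-485 against DMSO 12 rose and 19 fell, among them SLC2A3, a glucose transporter, at -2.07 ± 0.16, TF, transferrin, at -1.74 ± 0.13, RASSF1 at -1.001 ± 0.07 and VLDLR, a lipoprotein receptor, at 1.40 ± 0.10; 60.8% of the list were called, against 53.3% of all genes. With library totals alone 16 rose and 13 fell. With Dox against DMSO 6 rose and 12 fell (all genes 16.1% called), among them STC2, stanniocalcin, at 1.34 ± 0.07, VLDLR at 0.85 ± 0.10, ADORA2B at -0.71 ± 0.06 and LOXL2 at -1.56 ± 0.12. A fit of these 2 groups alone tested 50 of the genes and called 1 higher and 1 lower. With A-485 and Dox against Dox 20 rose and 14 fell (all genes 60% called), among them PLAUR, the urokinase receptor, at 2.29 ± 0.16, the transcription factor BHLHE41 at 5.59 ± 0.40, EFNA1, an ephrin, at -0.94 ± 0.07 and TF at -1.67 ± 0.13. BHLHE41 was low, at most 0.168 CPM in Dox. With A-485 and Dox against A-485 6 rose and none fell (all genes 7.39% called), among them STC2 at 1.98 ± 0.07, RASSF1 at 0.68 ± 0.07 and MXI1, a MYC antagonist, at 0.67 ± 0.13. Without Dox replicate 1 the calls were 20 higher and 29 lower for A-485 against DMSO (all genes 90.3% called), 14 and 33 for Dox against DMSO (66%), 31 and 19 for A-485 and Dox against Dox (87.8%), and 29 and 13 for A-485 and Dox against A-485 (66%).

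Genes that control the alpha subunits moved in part. Of 17 HIF subunit, co-regulator and degradation genes in the table, 2 rose and 3 fell with A-485 against DMSO (29.4% of the list called, all genes 53.3%), 3 rose and 2 fell with Dox against DMSO (29.4%, all genes 16.1%), 6 rose and 2 fell with A-485 and Dox against Dox (47.1%, all genes 60%), and 1 rose and 1 fell with both compounds against A-485 alone (11.8%, all genes 7.39%). None had an interaction called with all 12 libraries (all genes 2.58%). Without Dox replicate 1 the calls, higher and lower, were 11 and 4 for A-485 against DMSO (88.2%, all genes 90.3%), 8 and 7 for Dox against DMSO (88.2%, all genes 66%) and 10 and 5 for A-485 and Dox against Dox (88.2%, all genes 87.8%). They were 6 and 6 for A-485 and Dox against A-485 (70.6%, all genes 66%) and 6 and 5 for the interaction (64.7%, all genes 48.4%). CITED2, which competes with HIFs for CBP and p300 and is itself a HIF target, averaged 57.2 ± 1.19 CPM in A-485 and Dox, 95.2 ± 1.41 in A-485, 64.0 ± 6.84 in Dox and 129 ± 1.93 in DMSO (SD, n = 3 each). CITED2 fell by 1.01 with Dox against DMSO (SE 0.08, edgeR adjusted p = 4.1e-05), by 0.44 with A-485 against DMSO (SE 0.08, edgeR adjusted p = 0.001) and by 0.73 with A-485 and Dox against A-485 (SE 0.08, edgeR adjusted p = 0.00054). SIAH2, a ubiquitin ligase that acts on the hydroxylases, fell by 1.33 with A-485 against DMSO and rose by 0.64 ± 0.11 with Dox against DMSO, and NCOA1, a coactivator, rose by 1.34 ± 0.07 and 0.46 ± 0.06 in these comparisons. HIF3A, an alpha subunit that can act as an inhibitor, fell by 0.82 with Dox against DMSO (SE 0.21, edgeR adjusted p = 0.026), and RACK1, which promotes the degradation of HIF-1 alpha independently of oxygen, fell by 0.66 with A-485 against DMSO.

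VHL, the recognition subunit for hydroxylated HIF alpha, rose by 0.27 ± 0.08 with Dox against DMSO (edgeR adjusted p = 0.048; 0.35 without Dox replicate 1) and was at 0.13 ± 0.08 with A-485 against DMSO. CREBBP, which encodes CBP, rose by 0.64 ± 0.23 with A-485 against DMSO (edgeR adjusted p = 0.041), and EP300, which encodes p300, was at 0.71 ± 0.34 (edgeR adjusted p = 0.11). With A-485 and Dox against Dox both rose, CREBBP by 0.84 ± 0.23 and EP300 by 0.96 ± 0.35, and the values were 0.56 and 0.58 without Dox replicate 1. ARNT, the stable partner of the alpha subunits, rose by 0.78 ± 0.17 there (0.57 without Dox replicate 1) and was at 0.43 ± 0.17 with A-485 against DMSO (edgeR adjusted p = 0.06). HIF1AN, the asparagine hydroxylase that blocks binding of CBP and p300, rose by 0.38 ± 0.13 with A-485 and Dox against Dox, or 0.21 without Dox replicate 1, and was at 0.26 ± 0.13 with A-485 against DMSO (edgeR adjusted p = 0.12). The values of VHL, EP300, ARNT and HIF1AN for A-485 against DMSO were all called higher without Dox replicate 1. EGLN2, the hydroxylase PHD1, rose by 1.41 ± 0.37 with A-485 and Dox against Dox and by 1.01 without Dox replicate 1, but was at most 3.24 CPM and shares 30.6% of its exonic length with other genes.

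Glycolytic HIF targets called with doxycycline against DMSO were all lower with the 12 libraries, and those called with the inhibitor went both ways. Of 23 genes 7 fell and none rose with Dox against DMSO, where 7.08% of all genes were called lower and 9.01% higher, and 21 fell and 2 rose without Dox replicate 1, where the shares of all genes were 33.3% and 32.8%. HK1, a hexokinase, fell by 0.81 (SE 0.09), PGAM1 by 0.44 (SE 0.06), PFKP by 0.43 (SE 0.08) and ALDOA by 0.33 (SE 0.07). In a fit of Dox and DMSO alone none of the 23 was called. With A-485 against DMSO 7 rose and 7 fell, 60.9% of the list against 53.3% of all genes: HK1 rose by 3.22 ± 0.09, at 49.5 ± 0.50 CPM in A-485 against 5.30 ± 0.28 CPM in DMSO (SD, n = 3 each), ALDOA rose by 0.84 ± 0.07, PFKFB4 fell by 1.16 (SE 0.07) and SLC2A1, the glucose transporter GLUT1, fell by 0.53 (SE 0.07). With library totals alone 10 rose and 3 fell. With A-485 and Dox against Dox 9 rose and 5 fell (all genes 60% called), and with A-485 and Dox against A-485 PFKP, PGAM1 and ALDOA fell and none rose (all genes 7.39% called). With Dox replicate 1 left out the calls were 10 higher and 12 lower for A-485 against DMSO (all genes 90.3% called), 12 and 9 for A-485 and Dox against Dox (87.8%), and 9 and 14 for A-485 and Dox against A-485 (66%). With all 12 libraries and TMM scaling none of the 23 had an interaction called in edgeR (all genes 2.58%). Positive calls numbered 20 and negative calls none without Dox replicate 1, where 21.8% and 26.6% of all genes were. ALDOA shares 53.5% of its exonic length with other genes.

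Other mitophagy genes called with either compound against DMSO were all higher with the 12 libraries. Of 16 genes 9 rose and none fell with A-485 against DMSO, where 26.3% of all genes were called higher and 27.1% lower, with a median of 0.31 (all genes 0.04). The share called in either direction, 56.2%, is close to the 53.3% of all genes. GABARAPL1 and MAP1LC3B, the membrane-bound proteins that BNIP3 and BNIP3L bind, rose by 1.90 ± 0.07 and 1.22 ± 0.06, and PINK1, a kinase that marks damaged mitochondria, rose by 2.15 ± 0.29. PINK1 shares 41.7% of its exonic length with other genes. With Dox against DMSO 4 rose and none fell, where 9.01% of all genes were called higher and 7.08% lower: MAP1LC3B by 1.06 ± 0.06, GABARAPL1 by 0.65 ± 0.07, CALCOCO2 by 0.46 ± 0.06 and BCL2L13 by 0.48 ± 0.13. A fit of these 2 groups alone called 1 of the 16 higher and none lower. MAP1LC3B had 310, 314 and 318 CPM in A-485 and Dox, 222, 225 and 228 CPM in A-485, 194, 203 and 206 CPM in Dox and 95.3, 97.9 and 96.2 CPM in DMSO, and its interaction, at -0.58 ± 0.08, was the only one called in this list with all 12 libraries (edgeR adjusted p = 0.006; all genes 2.58%). The interaction was called positive for 1 of the 16 and negative for 10 without Dox replicate 1, where 21.8% and 26.6% of all genes were called. With A-485 and Dox against Dox 7 rose and 1 fell (PHB2, a receptor of the inner membrane, at -1.30 ± 0.31, and -0.71 without Dox replicate 1; all genes 60% called), and with A-485 and Dox against A-485 3 rose and none fell (all genes 7.39% called). The calls without Dox replicate 1 were 15 higher and 1 lower for A-485 against DMSO (all genes 90.3% called), 11 and 3 for Dox against DMSO (66%), 14 and 1 for A-485 and Dox against Dox (87.8%), and 9 and 5 for A-485 and Dox against A-485 (66%).

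ADM2, a relative of ADM, rose with doxycycline both with and without the inhibitor, and NDRG2, a paralog of NDRG1, fell in all 4 comparisons. ADM2, which encodes intermedin, a peptide of the same family as adrenomedullin, had 58.4, 57.1 and 57.3 CPM in A-485 and Dox, 6.53, 5.83 and 6.35 CPM in A-485, 82.3, 50.0 and 50.9 CPM in Dox and 4.52, 4.28 and 4.86 CPM in DMSO. All libraries with doxycycline lay far above those without it, with or without the inhibitor. ADM2 rose by 3.74 ± 0.19 with Dox against DMSO (3.47 without Dox replicate 1) and by 3.21 ± 0.19 with both compounds against A-485 alone, and its interaction was at -0.54 ± 0.25 (edgeR adjusted p = 0.34), and called negative at -0.26 without Dox replicate 1. A-485 against DMSO was at 0.45 ± 0.18 for ADM2 (edgeR adjusted p = 0.054). NDRG2 fell by 0.54 with Dox against DMSO (SE 0.09), by 1.23 with A-485 against DMSO (SE 0.09), by 1.29 with A-485 and Dox against Dox (SE 0.09) and by 0.60 with A-485 and Dox against A-485 (SE 0.09), so that its libraries with both compounds, at 14.5 ± 1.07 CPM, were the lowest. In the whole list of 16 genes in the table, 7 rose and 4 fell with A-485 against DMSO (68.8% of the list called, all genes 53.3%), 1 rose and 3 fell with Dox against DMSO (25%, all genes 16.1%), 5 rose and 4 fell with A-485 and Dox against Dox (56.2%, all genes 60%), and 1 rose and 1 fell with both compounds against A-485 alone (12.5%, all genes 7.39%). None had an interaction called with all 12 libraries (all genes 2.58%). Without Dox replicate 1 the calls, higher and lower, were 9 and 5 for A-485 against DMSO (87.5%, all genes 90.3%), 3 and 7 for Dox against DMSO (62.5%, all genes 66%) and 9 and 5 for A-485 and Dox against Dox (87.5%, all genes 87.8%). They were 3 and 9 for A-485 and Dox against A-485 (75%, all genes 66%) and 3 and 4 for the interaction (43.8%, all genes 48.4%).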

How the data were processed

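RNA of HepG2 cells, in 12 samples, was sequenced as poly(A) libraries on a BGISEQ-500. Per the submitters' processing notes, STAR 2.6.0a, HTSeq 0.10.0 and build GRCh38 were used; no source used here gives the strand setting, and overlapping or antisense genes therefore cannot be told apart. The deposited values are raw counts of reads per gene, made by the authors, for 13511 genes; 4 rows without a gene (ambiguous reads 9.1% to 12.3%, the others up to 8.93%) stayed out. All 13511 gene IDs were matched in GENCODE 29. From these counts, edgeR 4.0.16 (R 4.3.3) was fitted over all 12 libraries with TMM scaling, its filter on low counts (which removed no gene) and the robust quasi-likelihood test, with Benjamini-Hochberg adjustment over 13511 genes and a threshold of 0.05. SE is the log2 fold change over the root of the F statistic. CPM are TMM-scaled. Alternatives were leaving out each library, DESeq2 1.42.0 size factors and Wald test, library totals alone, 2 other filters, limma 3.58.1 voom with sample weights, fits of 2 groups, a replicate block and a length offset for Dox replicate 1. The test was also run on simulated counts with the same spread in all 12 libraries and no library like Dox replicate 1. That run therefore does not show how the test behaves with such a library. The 10 genes and all gene lists were chosen with earlier results of these data known. All 10 genes were named; of each list the genes with the smallest p (up to 4) and 1 called in the other direction were named in the comparisons described, and ADM2, EGLN2, HIF1AN, VHL, ARNT, CITED2, CREBBP and EP300 always. Some genes that this rule names are not reported here, so the named genes are not its full output; the counts include them.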

Additional observations from a re-analysis of the deposited data

Results flagged for a closer look

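For 3 of the 10 genes the doxycycline effect differed between cells with and without A-485 by the test of the difference itself. The interaction, as a log2 difference, was 1.41 for ADM (edgeR adjusted p = 8e-05), 0.81 for VEGFA (edgeR adjusted p = 0.023) and 0.74 for NDRG1 (edgeR adjusted p = 0.015). ADM fell with doxycycline alone in 3 of 3 libraries and was higher with both compounds than with A-485 in 3 of 3. Leaving out any 1 of the 9 libraries outside the Dox group ended the calls of VEGFA and NDRG1 and not that of ADM.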

How the results depend on the processing

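Of 1040 alternative values of the 10 genes, 895 kept direction and call, 60 gained a call, 48 lost one and 37 changed sign, none of these 37 for a value called with all 12 libraries. The number of the 10 genes called for Dox against DMSO, 2, was 8 with voom, 4 with the length offset, 1 with library totals and 1 in the fit of 2 groups, and 2 to 8 over the left-out libraries. For A-485 against DMSO, 6, it was 10 in the fit of 2 groups and 6 to 9 over the left-out libraries. For A-485 and Dox against Dox, 5, it was 10 with voom and 4 to 10 over the left-out libraries. For A-485 and Dox against A-485, 3, it was 9 with voom and 9 in the fit of 2 groups, and 2 to 9 over the left-out libraries. For the interaction, 3, it was 10 with voom, 1 with library totals, 1 with the replicate block and 1 to 10 over the left-out libraries. The highest counts of left-out libraries all came without Dox replicate 1. The other filters on low counts changed no call; the causes of the other changes were not tested.

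Signs changed as follows, with ranges over the 12 fits that left out 1 library. For Dox against DMSO the ranges were -0.36 to 0.18 for HIF1A, -0.48 to 0.01 for EPAS1, -0.014 to 0.037 for BNIP3L, -1.14 to 0.10 for CA9, -0.23 to 0.20 for EGLN1 and -0.12 to 0.028 for BNIP3. With voom HIF1A was at 0.18, EPAS1 at 0.01 and EGLN1 at 0.19, with the length offset EGLN1 at 0.013, EGLN3 at 0.003 and BNIP3 at 0.03, and BNIP3L was at -0.012 with DESeq2 size factors and with its Wald test and -0.047 with library totals. EGLN1 was at 0.31 for A-485 against DMSO with library totals. For A-485 and Dox against Dox the ranges were -0.33 to 0.165 for EPAS1, -0.06 to 0.136 for VEGFA and -1.02 to 0.22 for CA9; EPAS1 was at 0.32 with library totals and 0.023 with the replicate block, NDRG1 at -0.01 and VEGFA at -0.16 with the length offset, and VEGFA at -0.06 and CA9 at 0.22 with voom. For A-485 and Dox against A-485 the range of EGLN3 was -0.012 to 0.04. For the interaction the ranges were -0.13 to 0.41 for HIF1A and -0.46 to 0.78 for CA9; with voom HIF1A was at -0.12 and CA9 at 0.79, and CA9 was at 0.055 with library totals, 0.011 with the replicate block and 0.38 with the length offset. One end of each of these ranges except that of EGLN3 came without Dox replicate 1.

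The labels do not say whether equal replicate numbers pair the libraries. Among 18 same-numbered pairs, 1 had deviations correlated above 0.1 (-0.23 to 0.11). Low correlations show no visible shared effect but cannot decide whether the libraries were paired. With the replicate block, the interactions of NDRG1 and VEGFA (0.74 and 0.81) and BNIP3L for A-485 and Dox against A-485 were not called.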

Other observations

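EPO, which encodes erythropoietin, the hormone of red cell formation and a target of EPAS1 in liver, was chosen after its values were seen. It had 1.34, 1.46 and 1.38 CPM in A-485 and Dox, 2.07, 2.42 and 2.37 CPM in A-485, 50.96, 18.02 and 17.62 CPM in Dox and 23.1, 21.9 and 23.5 CPM in DMSO. All 6 libraries with the inhibitor lay far below the 6 without it. EPO fell by 3.32 on the log2 scale with A-485 against DMSO (SE 0.39, edgeR adjusted p = 5e-05) and by 4.37 with A-485 and Dox against Dox (SE 0.41, edgeR adjusted p = 1.1e-05; -3.67 without Dox replicate 1).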
